A study of Mus musculus with 40 samples.

Results

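The genes described here are the core of the MHC class II antigen presentation pathway. The set is Ciita, Cd74, H2-Aa, H2-Ab1, H2-Eb1, H2-DMa and H2-Ob, chosen by name, and holds 7 of the 37310 genes in the count table. All 7 passed the filter on low and constant values, as did 15630 genes in total. The data are RNA sequencing of mouse lung from 2 inbred strains, A/J and SWR/J (labelled SWJ), in which squamous lesions were induced by N-nitroso-tris-chloroethylurea (NTCU), a carcinogen painted on the skin. All mice were female and were young adults when they entered the study. Of 40 samples, 25 passed quality control, and 13 of them were tissue cut out by laser capture microdissection (LCM) and 12 were whole lung sections. The 7 normal samples came from mice given only the acetone vehicle, 3 of them A/J and 4 SWR/J. The 5 samples with mild dysplasia were all SWR/J, at a total NTCU dose of 15 µmol. The 13 high-grade samples were 9 with moderate to severe dysplasia at 14 to 30 µmol, 2 with severe dysplasia at 50 µmol, 1 carcinoma in situ (CIS) and 1 squamous cell carcinoma (SCC), both at 20 µmol. Of the high-grade samples, 5 were A/J and 8 SWR/J, and both carcinomas were A/J. Doses in the high-grade samples were 14 to 20 µmol in A/J and 25 to 50 µmol in SWR/J. Strain and dose therefore cannot be told apart among them. In 2 samples, a mild SWR/J and a normal A/J LCM sample, the free description named another histology than the grade used here. The labels do not tell which samples came from the same animal. Each was treated as independent, so p-values measure the spread between these samples.

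Class II molecules present peptides from endocytosed proteins to CD4 T cells. They are made mainly by B cells, dendritic cells and macrophages, and interferon gamma can induce them in epithelial cells, including those of the lung. Ciita is the coactivator that switches the family on, through factors bound to short X and Y boxes upstream of each gene. H2-Aa and H2-Ab1 encode the α and β chains of I-A, and H2-Eb1 encodes the β chain of I-E. Cd74 is the invariant chain that occupies the groove until the molecule reaches the endosome. H2-DMa is a chain of H2-DM, which exchanges the remnant of Cd74 for peptide, and H2-Ob is a chain of H2-O, which inhibits H2-DM and is most abundant in B cells.

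Except for Ciita and Cd74, which lie on other chromosomes, the members lie together in the H2 region of chromosome 17. In mm9, the build of the files, H2-DMa spans chr17:34272127-34276046, H2-Ob chr17:34375848-34390850, H2-Ab1 chr17:34400154-34406363, H2-Aa chr17:34406276-34424772 and H2-Eb1 chr17:34442828-34453144. H2-Aa and H2-Ab1 overlap by a short stretch at their ends on opposite strands, and the libraries were not stranded, so reads from that stretch cannot be told apart.

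The upstream sequences are shown because the X and Y boxes are what the members are known to share. Promoter windows from RefSeq (build GRCm38.p6, a later build than mm9) were found for 4 of the 7 members: H2-Aa, H2-Eb1, H2-DMa and H2-Ob. They are the sequence of the reference strain, C57BL/6J, not of A/J or SWR/J. Each window holds 300 bases, 250 before and 50 after the start. The letters GCAAC, a part of the X box, and GATTGG, the Y box with its inverted CCAAT, were searched on both strands, and they do not overlap each other. In H2-Aa, H2-Eb1 and H2-Ob, and in the related chains H2-Oa and H2-Eb2, GCAAC began 29 to 32 bases before GATTGG. This pair at this spacing, which was chosen after the sequences were seen, was in 31 of 32851 windows (0.0944%), whereas GCAAC alone was in 35.2% and GATTGG alone in 16.1%. The windows of H2-DMa and of its partners H2-DMb1 and H2-DMb2 did not hold the pair. A match is a description of letters, not a shown binding site. The capitals mark GCAAC and GATTGG, and each sequence is written 5′ to 3′ on the strand of its gene.
H2-Aa, chr17:34287852-34287919, minus strand: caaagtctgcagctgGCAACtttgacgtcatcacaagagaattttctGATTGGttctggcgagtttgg
H2-Eb1, chr17:34305761-34305827, plus strand: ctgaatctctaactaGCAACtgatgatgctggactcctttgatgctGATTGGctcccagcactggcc
H2-Ob, chr17:34238803-34238867, plus strand: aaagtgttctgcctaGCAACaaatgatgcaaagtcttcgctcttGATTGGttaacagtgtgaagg
H2-Oa, chr17:34092288-34092355, plus strand: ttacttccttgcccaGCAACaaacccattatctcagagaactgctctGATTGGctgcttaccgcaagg
H2-Eb2, chr17:34325528-34325594, plus strand: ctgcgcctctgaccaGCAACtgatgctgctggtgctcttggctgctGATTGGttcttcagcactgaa

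The samples held from 2667387 to 16534728 expected counts each, and the median transcript integrity number (TIN, a measure of RNA quality) ranged from 21.7 to 75.1. Markers of the labelled tissue were detected in every sample, with sums of 191 to 33644 CPM for alveolar type 2 cells and 698 to 189831 CPM for airway epithelium. Values are log2 CPM (counts scaled to library size) after TMM scaling, with a prior count of 2. The thinnest counts among the members were 2 for H2-Ob and 6 for Ciita, in the samples where they were lowest. Per kilobase of exon, the mean level over the 25 samples was 437 CPM for Cd74, 367 for H2-Aa, 217 for H2-Ab1, 47.0 for H2-Eb1, 21.9 for H2-DMa, 9.31 for H2-Ob and 2.4 for Ciita. The invariant chain and the I-A chains were thus the most abundant and the coactivator the least. By the median, the log2 level per kilobase was 8.12 for Cd74, 7.74 for H2-Aa and 7.52 for H2-Ab1, differences smaller than the SD over samples of any of the 3, which was 1.15 to 1.35. The median was 4.14 for H2-DMa and 4.10 for H2-Eb1, also closer than their spread. Counted per kilobase of the longest transcript, H2-Aa at 8.55 passed Cd74 at 8.12.

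Within the set, the genes varied over a wide range, from 36.8-fold between the lowest and the highest sample for H2-DMa to 245-fold for H2-Ob. The normal SWR/J whole lung sample labelled replicate 8 was the highest for 5 of the 7 members, with 11.73 log2 CPM for Cd74, 12.47 for H2-Aa, 10.63 for H2-Ab1, 7.54 for H2-DMa and 7.83 for H2-Ob. The A/J SCC sample was the lowest for 4 of the 7, with 0.19 for Ciita, 6.56 for H2-Aa, 5.18 for H2-Ab1 and -0.11 for H2-Ob. The levels of most members rose and fell together over samples. Spearman's rho over the 25 samples was 0.979 for H2-Aa with H2-Ab1, 0.900 for Ciita with Cd74 and 0.905 for H2-Ab1 with H2-DMa. H2-Eb1 was the exception, with a rho of -0.00 against H2-Ab1 in the pooled samples, but 0.912 within the 17 SWR/J and 0.952 within the 8 A/J samples. These correlations are descriptions over samples that share strain, sample type and library scaling.

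**Figure D1:**
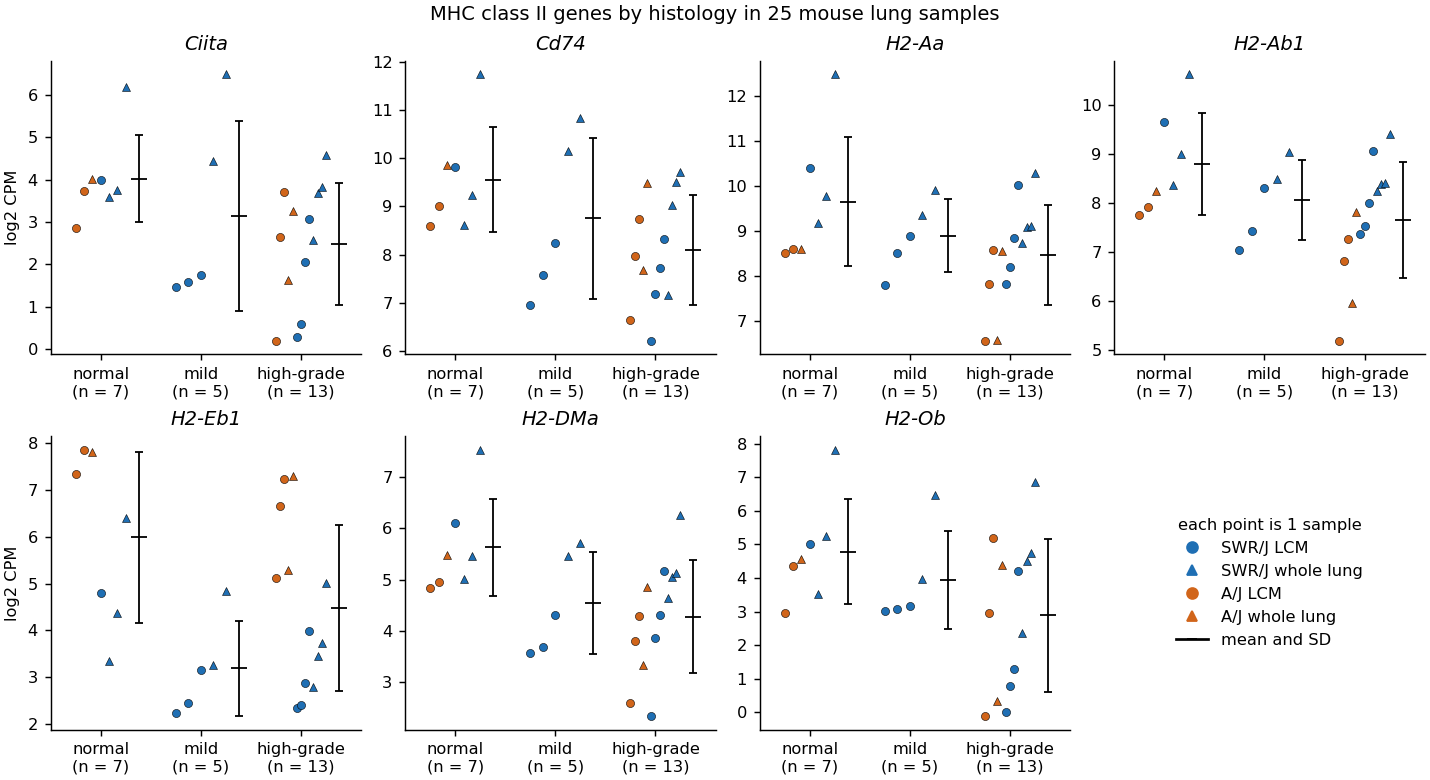
Each panel plots 1 member's log2 CPM (vertical axis) in the normal, mild dysplasia and high-grade samples, with 1 point per sample, colour for strain and shape for sample type. Black bars give the mean and SD. Groups overlap in every panel, and in the H2-Eb1 panel the A/J samples, from 5.11 to 7.87, lie mostly above the SWR/J samples, from 2.23 to 6.40.

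The comparison of mild dysplasia with normal lung asks whether the class II genes differ at the earliest lesion. In mild dysplasia 4 of the 7 members fell: H2-Aa, H2-Ab1, H2-Eb1 and H2-DMa, which code for the I-A chains, the I-E β chain and a chain of the peptide exchanger. In this comparison 7.24% of all genes tested were called lower and 12.4% called in either direction, by edgeR's quasi-likelihood test with sample type, strain and median TIN in the model and an adjusted p threshold of 0.05. The members' median log2 fold change was -1.46, against -0.02 over all genes. In bulk tissue, fewer cells that make a transcript and less of it per cell cannot be told apart.

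H2-DMa ranged from 4.84 to 7.54 log2 CPM in the 7 normal samples, with a median of 5.47. The 5 mild samples had 3.57, 3.68 and 4.31 in LCM and 5.46 and 5.72 in whole lung, so that all 3 LCM samples were below every normal sample and both whole lung samples were within the normal range. The fitted difference was -1.59 ± 0.45 (SE), 3.01-fold lower, with an adjusted p of 0.0309 (edgeR). H2-Aa had a normal range of 8.52 to 12.47 (median 9.17), and 7.80, 8.50 and 8.88 in the mild LCM and 9.36 and 9.91 in the mild whole lung samples. It was -1.75 ± 0.53 (adjusted p = 0.0367, edgeR), with overlapping groups. The normal ranges given for members other than H2-Eb1 pool 3 A/J and 4 SWR/J samples, whereas all mild samples were SWR/J. A/J samples of any grade reached at most 8.60 for H2-Aa and 8.26 for H2-Ab1, so these ranges mix strain with grade. The fitted differences have strain in the model. Only 1 normal SWR/J sample was LCM.

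H2-Ab1 ran from 7.76 to 10.63 in normal samples (median 8.36), against 7.04, 7.43 and 8.30 in mild LCM and 8.49 and 9.05 in mild whole lung. It differed by -1.46 ± 0.45 (adjusted p = 0.0404, edgeR). H2-Eb1 in particular has to be read within SWR/J, since no mild sample is A/J. The 4 normal SWR/J samples had 4.79 in LCM and 3.34, 4.36 and 6.40 in whole lung. The mild samples had 2.23, 2.45 and 3.14 in LCM and 3.26 and 4.84 in whole lung. The 3 mild LCM samples and the lower of the mild whole lung samples were below all 4 normal SWR/J samples, and the other mild whole lung sample was within their range. The fitted difference, with strain in the model, was -1.73 ± 0.53 (adjusted p = 0.0395, edgeR).

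The other 3 members did not pass the threshold, although their estimates were also negative. Ciita was at 1.46, 1.60 and 1.75 in mild LCM but at 4.45 and 6.49 in mild whole lung, the latter the highest Ciita value of all 25 samples. The normal samples ran from 2.86 to 6.19, above the 3 mild LCM values, and the difference was -1.16 ± 0.70 (adjusted p = 0.256, edgeR). For Cd74 it was -1.01 ± 0.48 (adjusted p = 0.145) and for H2-Ob -1.33 ± 1.02 (adjusted p = 0.374).

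These 4 calls were lost in several settings, while all 4 estimates stayed negative in each of them. In SWR/J samples alone the differences were -1.88 for H2-Aa, -1.45 for H2-Ab1, -1.70 for H2-Eb1 and -1.54 for H2-DMa, with adjusted p from 0.0505 to 0.0598, and 0 of 7 members were called. Without normal replicate 8 and mild replicate 3, the whole lung samples that stand highest, 0 of 7 were called and the estimates were -1.18, -1.30, -1.60 and -1.35 for the same 4 genes.

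Other genes of the pathway fell beside the members. From a list of 12 further class II chains and loading factors, 5 were called lower and 0 higher. The H2-O α chain gene H2-Oa was -3.49 ± 0.93 (adjusted p = 0.0268), H2-Eb2 -3.74 ± 1.16 (adjusted p = 0.0409), and the endosomal proteases Ctsl and Ctse -1.97 ± 0.56 and -2.64 ± 0.76. The fifth was Ifi30, a thiol reductase that unfolds antigens. H2-Eb2 was near the floor, with a mean of 0.60 log2 CPM over all samples and a lowest count of 0. H2-DMb1 and H2-DMb2, the β chains that pair with H2-DMa, were -1.03 ± 0.40 (adjusted p = 0.0848) and -1.62 ± 0.56 (adjusted p = 0.0583). H2-Ea, the α chain of I-E, was -1.58 ± 0.71 (adjusted p = 0.129).

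Among 17 tested genes of class II transcription and turnover, 4 were called lower, among them Socs1 (-3.99 ± 0.97), a feedback inhibitor of cytokine signalling, Rfxank (-0.50 ± 0.15), a subunit of the X box factor RFX, and Ifngr1 (-1.15 ± 0.38), a chain of the interferon gamma receptor. Of 6 genes for contacts with T cells, 2 were called lower, Cd40 (-1.79 ± 0.48) and the class II coreceptor Cd4 (-4.89 ± 1.43). Class I antigen processing genes were called lower in 7 of 9 cases, among them the immunoproteasome subunit Psmb8 (-2.21 ± 0.44), the peptide transporter subunit Tap1 (-1.53 ± 0.31), Psme2 (-1.02 ± 0.25) and the class I coactivator Nlrc5 (-1.99 ± 0.51).

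Markers of other cell types also differed between the same groups. T cell markers were called lower in 8 of 8 cases, with a median log2 fold change of -5.24. Their summed level did not overlap, at 236 to 5120 CPM in normal and 51.8 to 203 CPM in mild samples. Of 10 B cell markers 1 was called lower, with sums of 30.5 to 2295 CPM in normal and 35.6 to 1073 CPM in mild samples. All 10 B cell marker estimates were negative, with a median of -1.65. Of 10 dendritic cell markers 1 was called lower, with sums of 47.6 to 389 and 35.8 to 139 CPM. Their estimates were negative for 6 and positive for 4, with a median of -1.06. For macrophages, 2 of 10 markers were called higher, with sums of 273 to 1824 and 222 to 733 CPM. Macrophage estimates were negative for 5 and positive for 5, with a median of 0.02. Pax5, Cr2 and Fcrla among the B cell markers, Flt3 and Siglech of the dendritic cell markers and Siglecf of the macrophage markers had a rounded count of 0 in 1 to 3 of the 25 samples, and no T cell marker had. Markers of structural lung cells had positive estimates, with medians of 2.02 for alveolar type 2 cells (8 of 8 positive, 1 called), 1.28 for endothelium (6 of 6 positive, 0 called) and 1.18 for airway epithelium (9 of 9 positive, 0 called). The part of these cell types in the fall of the class II genes was not tested.

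High-grade lesions were compared with the same 7 normal samples. Class II genes were lower in every estimate, but 0 of 7 passed the threshold by edgeR or by DESeq2, where edgeR called 0.0192% of all genes. By edgeR, 2 of 7 had an unadjusted p under 0.05, which 9.14% of all genes had. H2-Ab1 ranged from 5.18 to 9.41 log2 CPM (median 7.82) in the 13 high-grade samples, against 7.76 to 10.63 in normal lung, and differed by -0.88 ± 0.36 (adjusted p = 0.503, edgeR). H2-DMa ranged from 2.34 to 6.26 (median 4.31) and differed by -0.87 ± 0.36 (adjusted p = 0.502, edgeR). The groups overlapped for both genes, with 7 high-grade samples of H2-Ab1 above the lowest normal sample at 7.76.

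The remaining estimates were -0.83 for H2-Eb1, -0.77 for H2-Aa, -0.69 for Cd74, -0.48 for Ciita and -0.11 for H2-Ob, with adjusted p from 0.558 to 0.971 (edgeR). The interval of ±2 SE for Ciita, -1.53 to 0.57, leaves room for a difference in either direction. H2-Ob was positive in whole lung samples alone, at 0.38, and close to 0 without normal replicate 8 and mild replicate 3, at 0.02. None of the 4 further lists had a called gene. Among their smallest p-values were those of Lgmn, an endosomal protease (0.88 ± 0.26), and H2-DMb1 (-0.64 ± 0.32) among chains and loading factors, Rfx5 (-0.55 ± 0.19) among transcription genes, the costimulator Cd80 (1.38 ± 0.62) and Cd83 (-0.90 ± 0.60) among T cell contacts, and Tap1 (-0.65 ± 0.23) and Psmb8 (-0.76 ± 0.34) among class I genes.

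Against mild dysplasia, all 7 estimates in high-grade samples were positive, from 0.33 for Cd74 to 1.22 for H2-Ob. By edgeR and by DESeq2 0 of 7 were called (edgeR 0.326% of all genes), and by edgeR 0 of 7 had an unadjusted p under 0.05, against 22.5% of all genes. The comparisons of mild and high-grade lesions share the normal samples. With grade as a rank from 0 for normal to 4 for CIS or SCC, the differences per step were negative for 7 of 7 members, from -0.43 ± 0.15 for H2-Ab1 (adjusted p = 0.196) to -0.12 for H2-Ob. By edgeR 0 of 7 were called where 0.262% of all genes were, and 5 of 7 had an unadjusted p under 0.05 where 13.7% of all genes did. DESeq2 called 1 of 7, H2-Ab1 (adjusted p = 0.0371). The share of all genes that DESeq2 called is not reported here, so this call cannot be set against it. From the 12 chains and loading factors only Lgmn was called, at 0.38 ± 0.08 per step.

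The lowest class II levels among A/J samples were those of the CIS (whole lung) and the SCC (LCM), a pattern picked out after the values were seen. H2-Aa was at 6.59 and 6.56 log2 CPM in them, against 7.83 to 8.60 in the other 6 A/J samples. H2-Ob was at 0.35 and -0.11, against 2.95 to 5.20. Ciita was at 1.62 and 0.19, against 2.66 to 4.02. Both carcinomas were below all 6 other A/J samples for 7 of 7 members, as they were for 14.5% of all genes, with 1 sample of each grade and no test. In the same samples summed B cell markers were at 9.53 to 15.8 CPM against 30.5 to 239, dendritic cell markers at 32.2 to 39.6 against 54.6 to 86.8, and T cell markers at 17.9 to 21.7 against 49.5 to 3612. Macrophage markers were at 436 to 741 against 273 to 402 CPM, higher in the carcinomas. The part of these cells was not tested.

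Whether the high-grade difference depended on how the tissue was taken or on strain was tested by interaction terms. By edgeR and by DESeq2 0 of 7 members were called, and by edgeR 0 of 7 had an unadjusted p under 0.05 in either test, where edgeR called 0% of all genes and 7.15% (sample type) and 4.34% (strain) had an unadjusted p under 0.05. The estimates ran from -0.41 to 1.01 for whole lung less LCM and from -0.27 to 0.54 for A/J less SWR/J, with SEs from 0.61 to 1.53. High-grade samples of the strains also differed in NTCU dose, so the strain term cannot tell strain from dose.

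**Figure D2:**
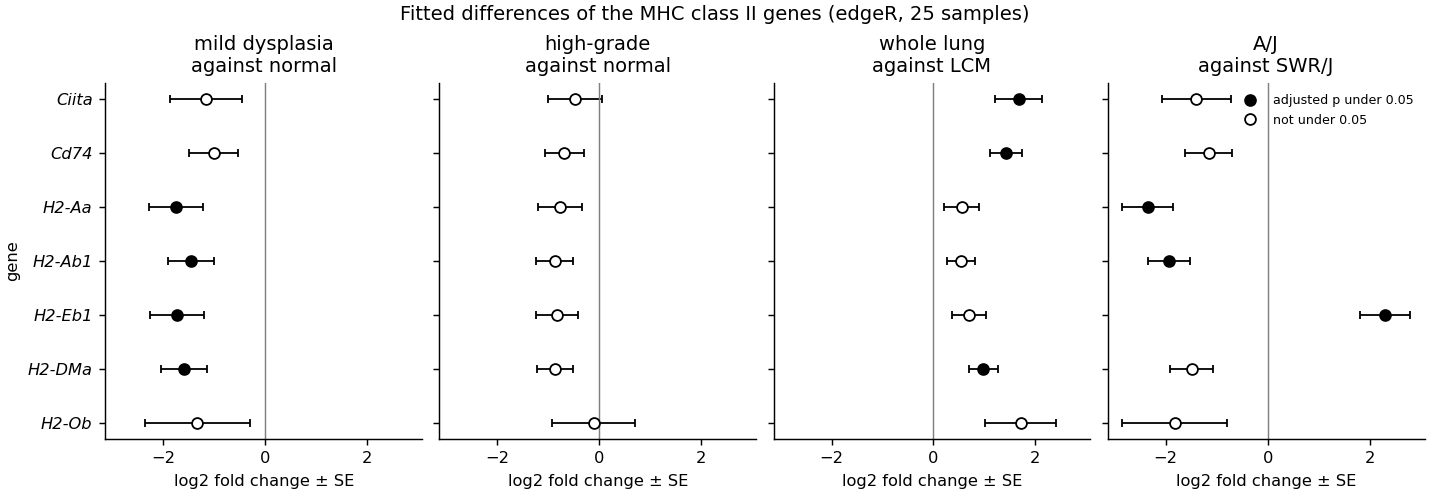
Each panel gives 1 comparison, with the fitted log2 fold change of each member (horizontal axis) and bars of 1 SE. Filled points have an adjusted p under 0.05 (edgeR). In the first panel 4 of 7 points are filled and in the second 0 of 7, and in the strain panel H2-Eb1 at 2.31 lies opposite to H2-Aa at -2.36 and H2-Ab1 at -1.93.

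LCM tissue was cut out under the microscope, whereas a whole lung section holds all compartments. Compared with LCM, whole lung samples were higher for 3 of 7 members, Ciita, Cd74 and H2-DMa, where 8.93% of all genes were called higher and 14.6% called in either direction. Ciita ranged from 0.19 to 3.99 log2 CPM (median 2.07) in the 13 LCM samples and from 1.62 to 6.49 (median 3.81) in the 12 whole lung samples. The fitted difference was 1.67 ± 0.46, 3.18-fold, with an adjusted p of 0.0184 (edgeR). Cd74 ranged from 6.21 to 9.82 (median 7.96) in LCM and from 7.16 to 11.73 (median 9.50) in whole lung, a difference of 1.42 ± 0.31 (adjusted p = 0.00655, edgeR). H2-DMa was higher by 0.98 ± 0.29 (adjusted p = 0.0263, edgeR), from medians of 4.29 and 5.30. The ranges of the sample types overlapped for all 3 genes.

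The I-A and I-E chains differed less and were not called, with 0.55 ± 0.34 for H2-Aa, 0.54 ± 0.28 for H2-Ab1 and 0.69 ± 0.34 for H2-Eb1 (adjusted p = 0.282, 0.203 and 0.165). H2-Ob had the largest estimate of the 7, 1.71, and the largest SE, 0.70 (adjusted p = 0.104, edgeR). Both β chains of H2-DM rose with H2-DMa, H2-DMb1 by 0.93 ± 0.26 (adjusted p = 0.0208) and H2-DMb2 by 1.19 ± 0.36 (adjusted p = 0.0315), the 2 called genes of the 12 chains and loading factors. Nfya (0.79 ± 0.22), a subunit of the Y box factor, and Irf8 (1.12 ± 0.34), a factor of myeloid and B cells, were the 2 called of 17 transcription genes. Cd40 (1.22 ± 0.30) and the class I loading chaperone Tapbp (0.44 ± 0.10) were the only called genes of the lists of T cell contacts and class I processing.

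In whole lung, 8 of 10 B cell markers, 6 of 6 endothelial markers, 4 of 8 alveolar type 2 cell markers, 2 of 10 dendritic cell markers and 2 of 10 macrophage markers were called higher, and 0 of 8 T cell markers. Summed B cell markers ranged from 9.53 to 260 CPM (median 43.9) in LCM and from 15.8 to 2295 CPM (median 211) in whole lung, and their part in the class II difference was not tested. Without normal replicate 8 and mild replicate 3 the estimates were 1.33 for Ciita, 1.32 for Cd74 and 0.90 for H2-DMa, and only Cd74 was called. In the 8 A/J samples alone all 7 estimates turned negative, with 0 of 7 called. The unfitted values there did not show that order throughout: in normal A/J lung Cd74 was at 8.60 and 9.01 in LCM and 9.86 in whole lung.

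Between strains, members moved in opposite directions. The strains carry different H2 haplotypes, H2a in A/J and H2q in SWR/J, and all reads were aligned to a single reference, that of an H2b strain. Mice of the H2b and H2q haplotypes are known not to display I-E on their cells. In A/J, H2-Eb1 was higher and the I-A genes H2-Aa and H2-Ab1 were lower than in SWR/J, so that 3 of 7 members were called where 0.992% of all genes were (0.333% higher and 0.659% lower in A/J). NTCU dose was not in the model, and all high-grade A/J samples had lower doses than the high-grade SWR/J samples. Among high-grade samples strain and dose cannot be told apart.

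H2-Eb1 ranged from 5.11 to 7.87 log2 CPM (median 7.27) in the 8 A/J samples and from 2.23 to 6.40 (median 3.34) in the 17 SWR/J samples. The ranges overlap through the A/J carcinomas at 5.11 and 5.30 and through the SWR/J normal replicate 8 at 6.40. The fitted difference was 2.31 ± 0.49, 4.94-fold, with an adjusted p of 0.0184 (edgeR). H2-Aa ranged from 6.56 to 8.60 (median 8.54) in A/J and from 7.80 to 12.47 (median 9.12) in SWR/J and differed by -2.36 ± 0.50 (adjusted p = 0.0174, edgeR). H2-Ab1 differed by -1.93 ± 0.42 (adjusted p = 0.0199, edgeR), from medians of 7.51 and 8.40.

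The other members had negative estimates without a call: H2-DMa -1.49 ± 0.42 (adjusted p = 0.0929), Cd74 -1.16 ± 0.45 (0.201), Ciita -1.40 ± 0.67 (0.285) and H2-Ob -1.82 ± 1.03 (0.356). H2-Ea, the partner of H2-Eb1 and annotated as a pseudogene in the reference, was at 2.12 ± 0.66 (adjusted p = 0.115), in the direction of H2-Eb1. Within LCM samples alone and within whole lung samples alone 0 of 7 members were called, with H2-Eb1 at 3.06 and 1.66, H2-Aa at -2.03 and -2.84 and H2-Ab1 at -1.89 and -2.05. Without normal replicate 8 and mild replicate 3 only H2-Eb1 was called, at 2.87 (adjusted p = 0.0135, edgeR).

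Because the level of the whole set varies between samples, the chains were also set against each other inside each sample, as log2 CPM per kilobase. H2-Eb1 less H2-Ab1 was 0.17 ± 0.25 (SD, n = 8) in A/J, ranging from -0.20 to 0.46, and -4.45 ± 0.40 (SD, n = 17) in SWR/J, ranging from -5.19 to -3.76. By union of exons, the I-E β chain was read near the level of the I-A β chain in every A/J sample. In SWR/J the I-E β chain was at the median 23.9-fold below. The longest transcript has 1211 rather than 1644 bases for H2-Ab1, and 1178 rather than 1189 for H2-Eb1. By that length H2-Eb1 would stand lower against H2-Ab1, by the same amount in every sample. Choice of length moves each pair by a constant and leaves its contrast between strains unchanged. The strains did not overlap, and the gap between them, from -3.76 to -0.20, was several times either SD. Of all 15630 genes, 0.307% stood in all A/J samples above all SWR/J samples on this measure.

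The α chains showed the same split, with H2-Ea less H2-Aa at -0.61 ± 0.37 (SD, n = 8) in A/J and -4.97 ± 0.82 (SD, n = 17) in SWR/J. The ranges were -1.18 to -0.21 and -6.94 to -3.57. What share of all genes stands apart between strains when set against H2-Aa was not worked out. In contrast, H2-Aa less H2-Ab1 was 0.58 ± 0.35 in A/J and 0.55 ± 0.30 in SWR/J, with overlapping ranges of 0.07 to 1.11 and 0.18 to 1.56. H2-DMa less H2-Ab1 was -2.86 ± 0.18 in A/J and -3.58 ± 0.49 in SWR/J. It was mostly higher in A/J, with ranges of -3.10 to -2.62 and -5.10 to -3.03 that overlap only at their ends. Cd74 less H2-Ab1 (1.60 ± 0.35 and 0.43 ± 0.87) and Ciita less H2-Ab1 (-6.35 ± 0.56 and -7.30 ± 1.27) were also higher on average in A/J. The same held for H2-Ob less H2-Ab1 (-5.10 ± 1.29 and -5.63 ± 1.52), and the ranges of these pairs overlapped. Alleles of the H2 chains differ in sequence from the reference, and how far reads of either strain failed to align, or aligned to another chain, was not tested and cannot be told apart here from a difference in transcript level.

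**Figure D3:**
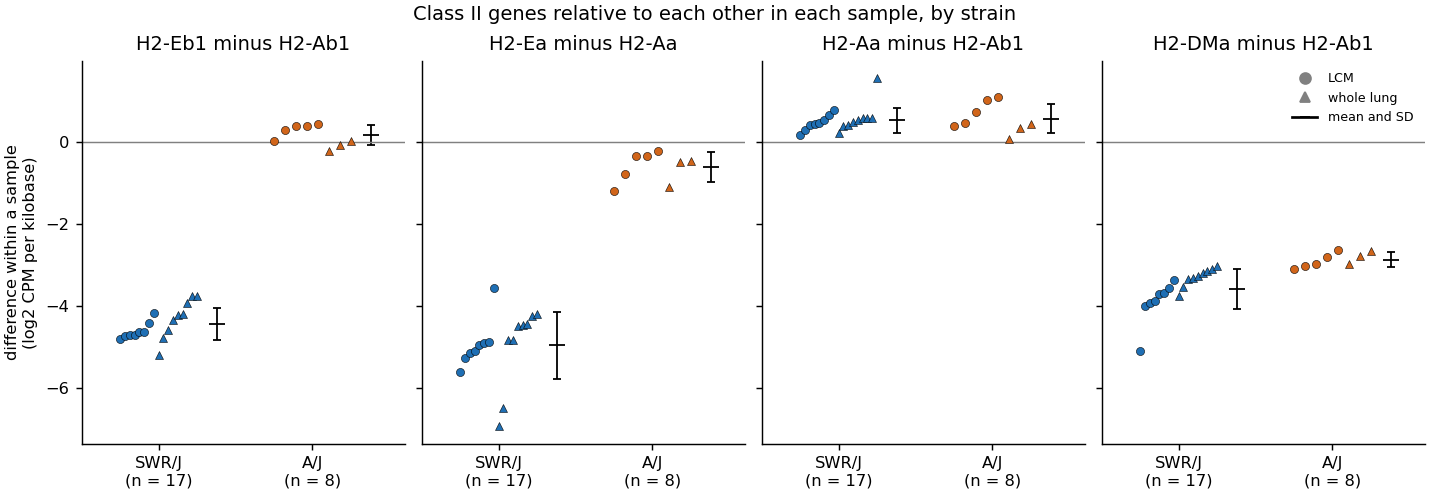
Differences between class II genes in the same sample, in log2 CPM per kilobase (vertical axis), for the 17 SWR/J and 8 A/J samples, with 1 point per sample and bars for the mean and SD. The strains are apart for H2-Eb1 less H2-Ab1 (means of -4.45 and 0.17) and for H2-Ea less H2-Aa. They overlap for H2-Aa less H2-Ab1, and only at the ends of their ranges for H2-DMa less H2-Ab1, which is mostly higher in A/J.

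Among the lists, 2 of 12 chains and loading factors were called, both lower in A/J: Ctse, which codes for cathepsin E, by -5.47 ± 0.74 (adjusted p = 0.000137, edgeR) and Ifi30 by -1.58 ± 0.33 (adjusted p = 0.0137, edgeR). No gene of the other 3 lists was called, and the smallest p-values there were those of March8 (1.2 ± 0.39), a ligase that removes class II from the surface, Irf8 (-1.35 ± 0.49), Cd86 (-1.81 ± 0.46), Cd40 (-1.60 ± 0.45), Tap1 (-0.93 ± 0.28) and Psmb8 (-1.24 ± 0.38). B cell markers had a median log2 fold change of -2.46 with 0 of 10 called, and summed to 9.53 to 239 CPM in A/J and 17.1 to 2295 CPM in SWR/J. Medians were also negative, with 0 called, for T cell (-1.90), dendritic cell (-1.17), muscle (-1.04) and macrophage markers (-0.71) and class I processing genes (-0.93). They were positive, with 0 called, for alveolar type 2 (2.14), endothelial (1.97) and airway epithelial markers (1.22). Median TIN was 53.7 to 69.6 in A/J and 21.7 to 75.1 in SWR/J samples. The fit holds median TIN as a covariate. Without it H2-Aa was at -1.60 and H2-Ab1 at -1.54, both called (adjusted p = 0.0194 and 0.00720, edgeR), and in samples with a median TIN of at least 30 they were at -2.28 and -1.86 and not called (adjusted p = 0.0614 and 0.0576). The part of these cell types in the lower I-A genes was not tested.

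Over all 25 samples, the mean of the members' z-scored log2 CPM followed the summed markers of dendritic cells (Spearman's rho 0.919) and B cells (0.855) most closely, then T cells (0.732). It bore little relation to those of macrophages (0.122), alveolar type 2 cells (0.025) or airway epithelium (-0.139). The values are descriptions over samples that share library, strain and sample type, and Itgae and Ccr7 of the dendritic cell list are also made by T cells. The sums are unweighted, so the dendritic cell sum leans on Ccr7. Ccr7 reached 199 CPM and Siglech 66.5 CPM, and the next highest gene of that list, Zbtb46, 19.9 CPM. In the macrophage sum Marco ran from 0.32 to 551 CPM and was fitted 22.9-fold higher in whole lung than in LCM (edgeR). How far the low rho for macrophages rests on Marco was not tested.

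**Figure D4:**
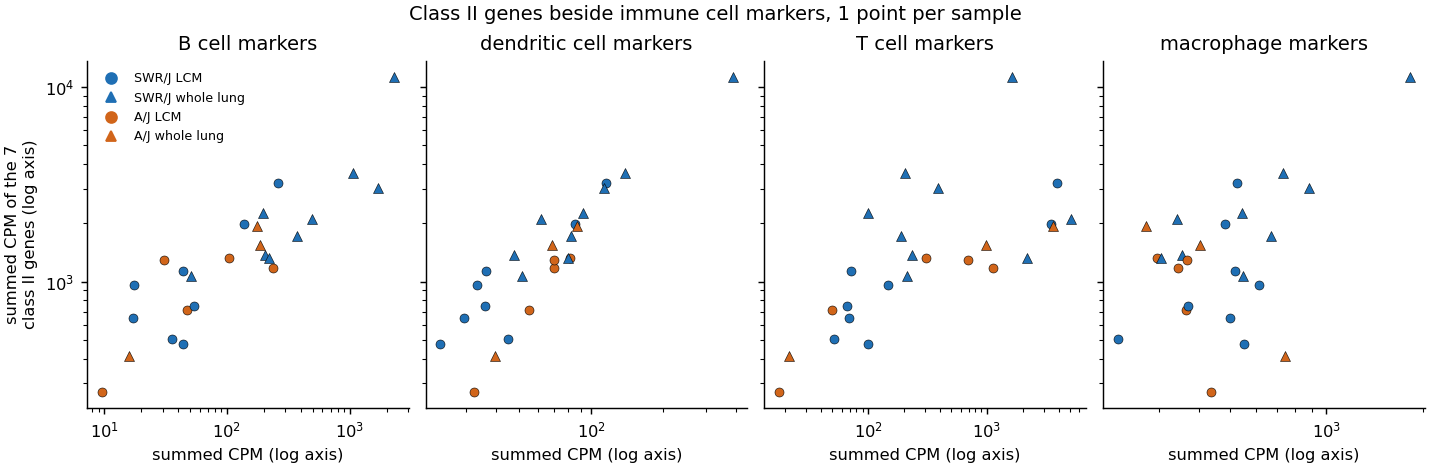
The summed CPM of the 7 class II genes (vertical log axis) against the summed CPM of 4 lists of immune cell markers (horizontal log axes), with 1 point per sample, colour for strain and shape for sample type. The points climb together for B cell and dendritic cell markers (rho with the members' mean 0.855 and 0.919) and scatter for macrophage markers (0.122).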

How the data were processed

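RNA of 25 samples that passed quality control was analysed, of 40 sequenced. Per the labels and the methods, the authors trimmed single-end reads of 50 nucleotides with Trimmomatic, aligned them to mm9 with STAR and deposited expected counts from RSEM for each gene, which are not normalized. An expected count divides reads that match several genes among them, which can move reads between similar H2 chains. Gene symbols and positions came from an mm9 annotation, which held 37310 of 37310 identifiers. There were 0 unused columns.

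Expected counts were rounded and fitted with edgeR 4.0.16 (TMM, robust quasi-likelihood) in R 4.3.3, with sample type, strain and median TIN in the model, on 15630 genes with an interquartile range above 0 and a sum above 1 of log2 CPM (prior count 2). Benjamini-Hochberg adjustment of p-values ran over all these genes. Standard errors were the absolute log2 fold change over the square root of F. Tables were made with Python 3.11.15. The fits were also run on simulated counts with known changes, drawn independently for each sample, and the outcome is not reported here. That run cannot speak to samples that share an animal.

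Alternatives were DESeq2 1.42.0, other size factors and filters, other covariates, 1 strain or sample type alone, leaving out the samples with differing descriptions, and each sample in turn. The named genes are the 7 members, 5 related chains, and per list the called genes, at most 4 by smallest p, or 2 where none was called, and some genes that this rule names are not reported here. Members and lists were chosen with earlier results of these data known. A further 2 alternatives were chosen after seeing the data: leaving out normal replicate 8 and mild replicate 3, and a median TIN of at least 30.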

Additional observations from a re-analysis of the deposited data

Results flagged for a closer look

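Of 28 combinations of a member and a group of samples, 3 held a sample far from the others of its group by Dixon's criterion, which chance gives in about 1 of 20. Ciita in normal lung was at 6.19 log2 CPM and Cd74 in normal lung at 11.73, both in the SWR/J whole lung sample labelled replicate 8. H2-Ob in mild dysplasia was at 6.48, in the SWR/J whole lung sample labelled replicate 3. The former sample also had the highest summed B cell, dendritic cell and macrophage markers of the 25 samples, at 2295, 389 and 1824 CPM.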

How the results depend on the processing

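The 4 calls in mild dysplasia fell to 2 without a gene filter and to 0 without median TIN, with median TIN alone, in SWR/J only, in LCM only, in whole lung only, without the samples whose descriptions differ, and without normal replicate 8 and mild replicate 3. Leaving out 1 sample at a time gave 0 to 4 calls: 0 without normal replicate 3 or 8 or mild replicate 2, 3, 4 or 5, and 1 without moderate to severe replicate 4. The 3 calls for whole lung fell to 1 in SWR/J only, 0 in A/J only, 1 without the differing descriptions and 1 without normal replicate 8 and mild replicate 3, and stayed at 2 to 4 with 1 sample left out. The 3 calls for strain fell to 0 in LCM only, 0 in whole lung only, 1 without normal replicate 8 and mild replicate 3 and 1 at a median TIN of at least 30. With 1 sample left out they were 1 to 3, with 1 call without moderate to severe replicate 4 or normal replicate 8. For the rank of grade DESeq2 called 1 and leaving out 1 sample gave 0 to 1, with 1 call without severe replicate 4. High-grade against normal or mild and both interactions had 0 calls in each setting run. The estimates that changed sign were H2-Ob in high-grade against normal (0.38 in whole lung only, 0.13 in normal and moderate to severe only, 0.0218 without normal replicate 8 and mild replicate 3, and -0.86 to 0.10 with 1 sample left out), Ciita between strains (0.0149 in LCM only), and in A/J only all 7 for whole lung against LCM: Ciita -2.12, Cd74 -0.47, H2-Aa -1.46, H2-Ab1 -1.26, H2-Eb1 -1.72, H2-DMa -0.69 and H2-Ob -3.75. Subsets hold fewer samples, and the cause of the other changes was not tested. Over all genes, the number called in mild dysplasia was 1945, 3653 by DESeq2, 281 without normal replicate 8 and mild replicate 3, and 0 in LCM or whole lung only. Scalings moved the median of all genes by less than 0.1 on the log2 scale. Depth limits Ciita and H2-Ob most.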

Other observations

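Outside the members, the genes whose level followed the mean of the 7 z-scored members most closely over the 25 samples, among 14203 genes averaging 1 log2 CPM or more, were Cd37 (Spearman's rho 0.939), H2-DMb2 (0.919), Myo1g (0.904), Itga4 (0.904), Irf8 (0.903), Gbp5 (0.902), Bank1, Snn, Nfatc1 and Ptpn6 (each 0.900). After adjustment for median TIN, strain and sample type the leading genes were H2-DMb2 (0.966), Cd37 (0.939), H2-Ea (0.925), Cd79b (0.903), Cd86 (0.901), H2-Oa (0.898), Gimap4 (0.896), Tspan32 (0.895), Cd48 (0.888) and Gimap6 (0.879). Cd37, a tetraspanin of B cells, and H2-DMb2, a β chain of H2-DM, were in both groups of 10. The correlations are descriptions over samples that share library scaling and strain.

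The proportion of the H2-O chains in the mild samples differed from that in most other samples. H2-Ob less H2-Oa, in log2 CPM per kilobase within a sample, was 0.50 ± 0.36 (SD, n = 5) in mild dysplasia, ranging from 0.13 to 1.07. It was -1.25 ± 0.97 (SD, n = 7) in normal lung, ranging from -2.66 to 0.24, and -1.18 ± 1.13 (SD, n = 13) in high-grade samples, ranging from -3.75 to 0.12. The mild samples thus lay above most of the others, overlapping the normal range at its upper end only and lying just above the high-grade range. The difference was noticed in these values and was not tested. All mild samples were SWR/J, and how many other gene pairs part the grades in this way was not worked out. Lowest counts were 2 for H2-Ob and 5 for H2-Oa, and no prior count was added here. Differences in samples with such counts therefore rest on few reads.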
